A study of Mus musculus with 4 samples.

Results

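The 10 genes described here, of 32285 in the expression matrices, encode proteins through which an antigen-presenting cell stimulates or restrains lymphocytes: Cd40, Cd80, Cd86, Icosl, Cd83, Cd48, Cd274, Pdcd1lg2, Icam1 and Tnfsf9. They were listed by name as costimulatory ligands and receptors of presenting cells, by a rule that uses no measured value. All 10 symbols had 1 row each, and their Ensembl identifiers matched the annotation. The cells came from subcutaneous tumours of MC38, a colon carcinoma line of the mouse, in female C57BL/6 mice of 12 to 16 weeks. The knockout recipients carried floxed Prdm1 with CD19cre, a recombinase active in the B lineage, and the control recipients carried floxed Prdm1 alone. Prdm1 encodes BLIMP-1, the transcription factor needed for plasma cell differentiation. Tumours of 11 recipients per genotype were pooled on day 18, and sorted B220+ and CD138+ cells were combined into 1 library per genotype.

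T cells need further signals beside that of their antigen receptor. CD80 and CD86 give one by binding CD28 (or restrain the cell by binding CTLA-4), ICOS ligand gives one through ICOS, and 4-1BB ligand (Tnfsf9) through 4-1BB. CD40 works in the other direction: it receives CD40 ligand from helper T cells and signals through NF-kB, which in B cells supports germinal centre entry and raises other costimulatory proteins. PD-L1 (Cd274) and PD-L2 (Pdcd1lg2) bind PD-1 and restrain T cells.

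Cd274 and Pdcd1lg2 are neighbouring genes on chromosome 19, and their levels followed different cell classes. Icosl was the member with its highest level in a B cell cluster, though its interval overlapped that of the few conventional dendritic cell-like cells. For each of these genes the 250 bases before 1 annotated transcript start, from RefSeq on build GRCm38.p6, are shown so that these profiles can be read beside the sequence. They lie on the plus strand at chr19:29367188-29367437 (Cd274), chr19:29410669-29410918 (Pdcd1lg2) and chr10:78069118-78069367 (Icosl), and capitals mark a match to the NF-kB consensus.
Cd274: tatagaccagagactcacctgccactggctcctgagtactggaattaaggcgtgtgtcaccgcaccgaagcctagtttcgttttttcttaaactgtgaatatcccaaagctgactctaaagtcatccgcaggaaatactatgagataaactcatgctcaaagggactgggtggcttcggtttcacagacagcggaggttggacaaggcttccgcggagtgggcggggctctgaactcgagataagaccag
Pdcd1lg2: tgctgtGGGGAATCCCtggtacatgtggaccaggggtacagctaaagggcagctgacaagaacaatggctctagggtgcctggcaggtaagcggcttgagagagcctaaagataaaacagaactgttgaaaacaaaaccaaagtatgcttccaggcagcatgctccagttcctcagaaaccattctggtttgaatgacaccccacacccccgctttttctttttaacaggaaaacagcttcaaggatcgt
Icosl: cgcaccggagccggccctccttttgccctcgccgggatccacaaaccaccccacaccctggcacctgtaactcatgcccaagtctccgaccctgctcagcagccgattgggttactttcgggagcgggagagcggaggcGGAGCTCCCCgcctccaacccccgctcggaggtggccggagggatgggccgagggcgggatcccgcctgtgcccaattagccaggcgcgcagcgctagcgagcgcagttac
Both strands were searched for the NF-kB consensus, for the STAT-type palindrome TTCNNNGAA, for the AP-1 motif TGANTCA and for an interferon-response motif. The Pdcd1lg2 and Icosl windows end at the first base of the annotated gene, whereas the Cd274 window belongs to a transcript start 5331 bases inside it. The Pdcd1lg2 window held the NF-kB consensus 244 to 235 bases before the start, and the Icosl window held it 111 to 102 bases before the start. The Cd274 window held none of the 4 motifs. Of all 32851 windows of this length, 7.25% held the NF-kB consensus, 7.02% TTCNNNGAA, 6.75% TGANTCA and 2.98% the interferon-response motif. RefSeq windows were at hand for 6 of the 10 genes. Of the other 3 windows, Icam1 held TTCNNNGAA 42 to 34 bases before its start, Cd80 held TGANTCA 42 to 36 bases before its start, and Cd48 held none. The Cd80 and Cd48 starts lie 1503 and 747 bases inside the annotated genes. A match describes the letters of the window and is not a site.

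Each expression library was a matrix of unique molecular identifiers (UMIs, 1 per captured transcript). The knockout library had 897 barcodes with 5463434 UMIs, and the control library 816 with 6976374, and 863 and 804 cells were kept. The libraries shared 3 barcode sequences. With 1 library per genotype no test between genotypes was possible, and all intervals are 95% and cover counting error only. The stamps of the deposited files differ between genotypes, so a processing batch and the genotype cannot be told apart. Cells were clustered without the 10 genes, the related lists and immunoglobulin genes, and classes were named from marker genes, so a difference from names given elsewhere may come from these rebuilt names. The proportions in which the sorted fractions were mixed are not given in the sources used here, so class sizes are not compared.

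The B-like class held 287 knockout and 239 control cells, with median depths of 2713 and 3055 UMIs. All 11 B cell markers were detected in it in both libraries. It was made of 3 clusters. The Fcer2a cluster was led by Fcer2a (CD23) and held 112 knockout and 182 control cells. The Fcrl5 cluster, whose leading genes also included AC133103.1 and Ms4a1, held 158 knockout and 44 control cells, and a small cluster led by Dnajc7 held 17 and 13. The Fcrl5 cluster therefore held most knockout B-like cells and the Fcer2a cluster most control ones. Plasma-like cells numbered 0 in the knockout and 47 in the control library.

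The remaining classes differ in size and in how well their markers fit. Plasmacytoid dendritic (pDC)-like cells numbered 38 in each library, macrophage- or monocyte-like cells 47 in the knockout and 99 in the control library, and NK-like cells 245 and 154. Neutrophil-like cells, 16 knockout and 72 control, were led by S100a9 and S100a8 but also by Gpnmb, Inhba and Mmp12. The mature neutrophil genes Ly6g and Retnlg had 1 and 10 UMIs in the knockout cells and 0 in the control cells, so the name rests on the other markers. The summed neutrophil markers stood at 12268 CPM (counts per 1000000 UMIs of the class) in knockout and 4830 CPM in control cells of this class. A conventional dendritic cell (cDC)-like cluster led by Fscn1 and Ccr7 had 5 knockout and 2 control cells.

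Prdm1 itself had 16 UMIs (15.9 CPM) in knockout B-like cells and 1 UMI (1.08 CPM) in control B-like cells. Control plasma-like cells had 43 Prdm1 UMIs (43.1 CPM). Which exons are deleted is not given in the sources used here, and 5′ counts can arise upstream of a deletion, so this does not check the label. No plasma-like cell was found in the knockout library.

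Cd40, which receives help from T cells, was highest in the cDC-like cells, at 847 CPM over both libraries (632 to 1110 CPM), apart from every other class. The order below them was not the same in the libraries. In the knockout library macrophage- or monocyte-like cells had 116 CPM, the Fcer2a B cluster 101 CPM, the Dnajc7 B cluster 44.99 CPM and the Fcrl5 B cluster 44.4 CPM. In the control library the Dnajc7, Fcer2a and Fcrl5 B clusters had 151, 141 and 111 CPM with overlapping intervals, and macrophage- or monocyte-like cells 54.8 CPM. Levels given by class without a library are sums over both. Cd40 had 0 UMIs among the 997117 UMIs of plasma-like cells, which allows up to 3.01 CPM, and 1 among the 4159534 UMIs of NK-like cells.

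**Figure D1:**
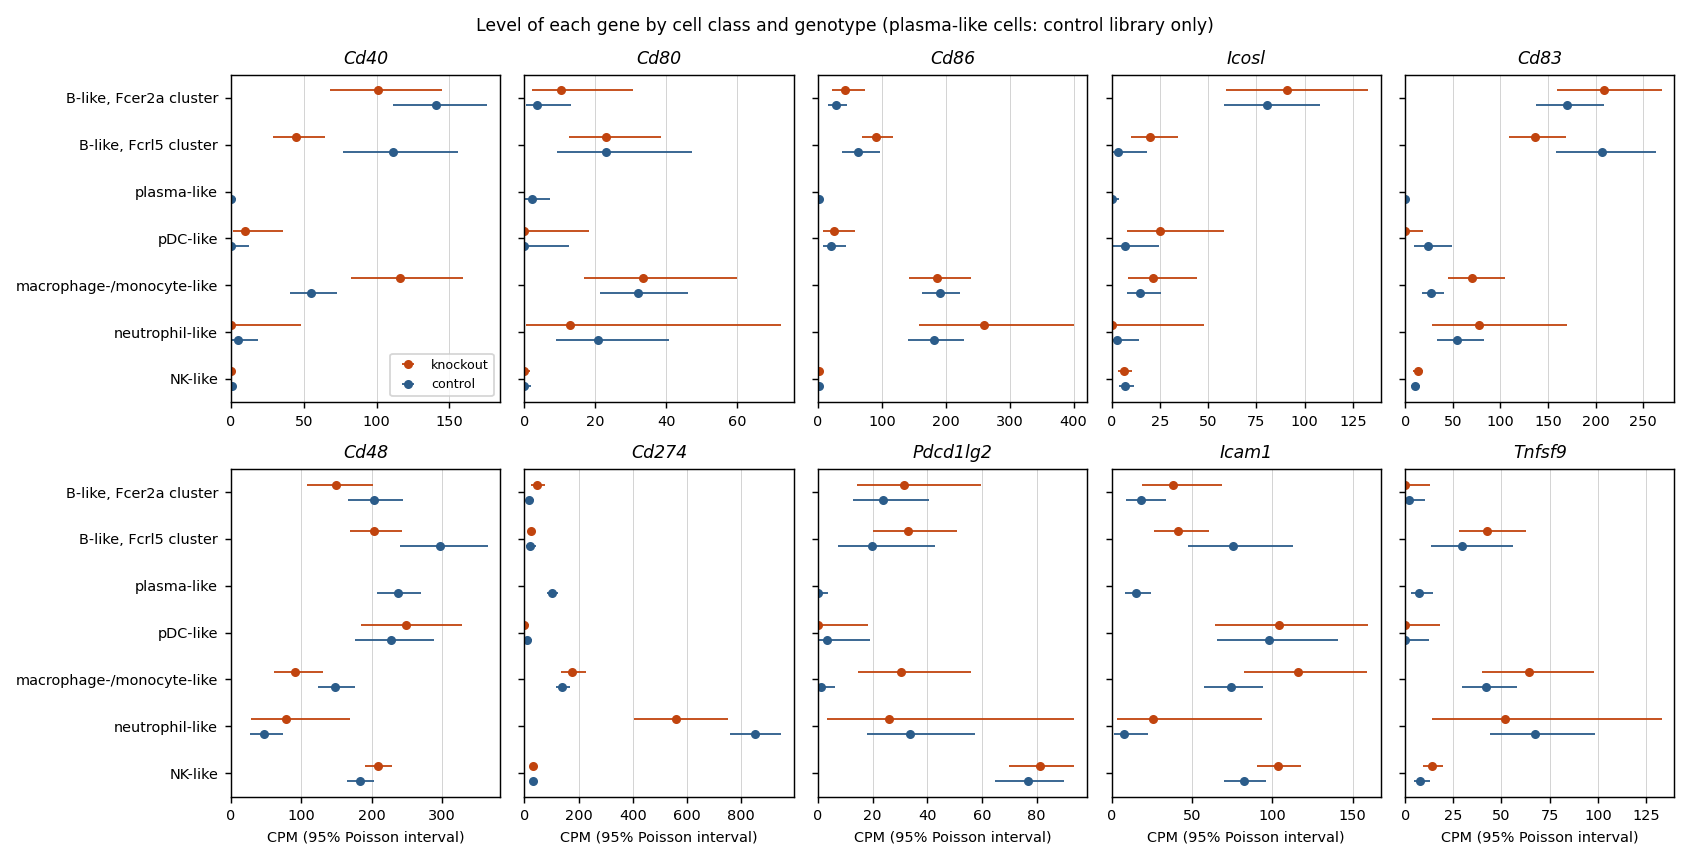
Level of each of the 10 genes (CPM of the class, x axis, 95% Poisson interval) by class (y axis), knockout cells above control cells in each class. Plasma-like cells exist in the control library only, where Cd40, Icosl, Cd83 and Pdcd1lg2 are at 0, and Cd274 in neutrophil-like cells is at 559 CPM in knockout and 851 CPM in control cells.

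Over both libraries Cd80 and Cd86, the CD28 ligands, were highest in the cDC-like cells, at 293 CPM for Cd80 and 472 CPM for Cd86. In the control library the cDC-like cells had 155 CPM of Cd86, from 4 UMIs. There the Dnajc7 B cluster had 288 CPM, macrophage- or monocyte-like cells 191 CPM and neutrophil-like cells 181 CPM, with overlapping intervals. In the knockout cDC-like cells 21 of the 25 Cd86 UMIs and 8 of the 13 Cd80 UMIs lay in 1 cell, which also carried an IGHM contig. Cd86 came next in the Dnajc7 B cluster at 223 CPM, in neutrophil-like cells at 194 CPM and in macrophage- or monocyte-like cells at 189 CPM, which did not differ beyond their intervals. The Fcrl5 B cluster had 81.0 CPM of Cd86 and the Fcer2a B cluster 32.4 CPM, with intervals apart. Cd80 had 111 UMIs in all kept cells, with 32.4 CPM in macrophage- or monocyte-like cells, 23.0 CPM in the Fcrl5 B cluster and 6.00 CPM in the Fcer2a B cluster. NK-like cells had 0 Cd80 UMIs and 2.16 CPM of Cd86.

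Icosl, the ligand of ICOS on helper T cells, was highest in the Fcer2a B cluster at 84.0 CPM (65.5 to 106 CPM). This interval overlapped those of the Dnajc7 B cluster, at 38.1 CPM (15.3 to 78.4 CPM), and of the cDC-like cells. The cDC-like cells had 32.6 CPM (3.94 to 118 CPM) from 2 UMIs. The Fcrl5 B cluster stood at 14.2 CPM, beside 16.6 CPM in macrophage- or monocyte-like cells and 14.1 CPM in pDC-like cells. Of all 156 Icosl UMIs, 57.7% lay in B-like cells, which were 31.6% of the kept cells. NK-like cells had 6.49 CPM.

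Cd83, an activation marker that stabilises CD86 and MHC class II on the surface, reached 1579 CPM in the cDC-like cells. The Fcer2a, Fcrl5 and Dnajc7 B clusters followed with 184, 160 and 130 CPM and overlapping intervals. Macrophage- or monocyte-like cells had 39.0 CPM, NK-like cells 11.5 CPM and plasma-like cells 0.

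Cd48, the ligand of CD2 and CD244, was broad. It ranged between 390.7 CPM in an unnamed cluster led by Tnfsf10 and 32.6 CPM in the cDC-like cells, where it rested on 2 UMIs. T-like, plasma-like, pDC-like and NK-like cells and both large B clusters lay between 185 and 315 CPM. Neutrophil-like cells had 51.8 CPM.

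Cd274, encoding PD-L1, was highest in neutrophil-like cells at 802 CPM over both libraries, of which the control cells were most. In the knockout library the 5 cDC-like cells stood at 674 CPM and the 16 neutrophil-like cells at 559 CPM, with overlapping intervals. That class held 37.2% of all 999 Cd274 UMIs in 5.28% of the kept cells. Over both libraries the cDC-like cells had 554 CPM, with an interval that overlapped, and macrophage- or monocyte-like cells had 150.3 CPM, apart from both. Plasma-like cells had 102 CPM (83.4 to 124 CPM), whereas the Fcer2a and Fcrl5 B clusters had 27.6 and 21.9 CPM. pDC-like cells had 3 UMIs, or 6.05 CPM.

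Pdcd1lg2, encoding PD-L2, had a different profile: NK-like cells held 329 of its 574 UMIs. Their level was 79.1 CPM, that of T-like cells 78.0 CPM, and the cDC-like cells had 244 CPM from 15 UMIs. Fcrl5 and Fcer2a B clusters had 28.5 and 26.4 CPM, macrophage- or monocyte-like cells 9.14 CPM and plasma-like cells 0. Within the NK-like class the cluster led by Gzmg had 95.8 CPM in knockout and 93.6 CPM in control cells. NK-like cells are therefore no background class for Pdcd1lg2.

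Icam1, the adhesion ligand of LFA-1, was highest in the unnamed cluster led by Tnfsf10 at 299.5 CPM and in the cDC-like cells at 293 CPM. All 46 UMIs of the unnamed cluster lay in its 53 knockout cells, and its 4 control cells had 0. pDC-like, NK-like and macrophage- or monocyte-like cells had 101, 93.8 and 85.5 CPM with overlapping intervals. The Fcrl5 B cluster had 52.5 CPM and the Fcer2a B cluster 25.2 CPM, neutrophil-like cells 10.8 CPM, and plasma-like cells had 15 UMIs. Tnfsf9, the ligand of 4-1BB, had 232 UMIs in all kept cells. It stood at 64.7 CPM in neutrophil-like, 48.2 CPM in macrophage- or monocyte-like and 38.3 CPM in Fcrl5-cluster B cells, with 1 UMI in the 294 cells of the Fcer2a cluster and 0 in pDC-like cells. Of the 35 UMIs of the Fcrl5 cluster 20 lay in 1 knockout cell and 6 in 1 control cell, and without these the level was 10.2 CPM in each library.

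Of the 10 members, 4 had 0 UMIs in plasma-like cells. The share of all genes at 0 there is not given here, so this count describes the members only. Against control B-like cells, Cd40 had 0 UMIs in plasma-like cells and 122 in B-like cells, a level at most 0.0228 times that of B-like cells with 0 set to the floor of 3 counts. Cd83 had 0 UMIs in plasma-like and 163 in B-like cells (at most 0.0171 times), and Icosl 0 and 46 (at most 0.0605 times). Pdcd1lg2 had 0 and 20 UMIs (at most 0.139 times). Cd86 had 1 UMI in plasma-like and 55 in B-like cells, a ratio of 0.0169 (0.000419 to 0.0980).

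With all UMIs in the totals, Cd274 was the 1 member of the 10 whose interval lay above 1. It had 102 UMIs in plasma-like and 17 in B-like control cells, a ratio of 5.57 (3.31 to 9.92). The share of all genes with such an interval is not given here. Tumour or epithelial markers summed to 120 CPM in plasma-like and 6.49 CPM in control B-like cells, with 1 of 4 and 3 of 4 at 0, and Epcam alone stood at 80.2 and 6.49 CPM. Their part in the ratio was not tested. Immunoglobulin made up 47.2% of plasma-like UMIs and 2.29% of control B-like UMIs. Without immunoglobulin UMIs in the totals the Cd274 ratio was 10.3 (6.13 to 18.4). Cd48 stood at 1.04 (0.858 to 1.25) with all UMIs and 1.92 (1.59 to 2.32) without immunoglobulin. Icam1 stood at 0.339 (0.174 to 0.626) with all UMIs and 0.629 (0.323 to 1.16) without immunoglobulin, where the interval includes 1.

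Knockout and control B-like cells were compared next, since the study's title concerns presentation by B cells that are blocked from the plasma cell fate. Of the 10 genes, 4 were at least 1.5-fold higher in knockout than in control B-like cells (Cd80, Cd274, Pdcd1lg2 and Tnfsf9) and 1 was lower (Cd40). Of all 7129 genes with at least 20 UMIs, 8.04% were higher and 11.2% lower by that fold, 19.2% in all. The median log2 ratio was 0.28 over the 10 genes and -0.06 over all genes. The 4 higher genes rested on 29 to 55 UMIs each in both libraries together.

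Cd40 had 61 UMIs, or 60.6 CPM (46.4 to 77.9 CPM), in knockout B-like cells and 122 UMIs, or 132 CPM (110 to 157 CPM), in control B-like cells. The ratio was 0.460 (0.332 to 0.630), and the intervals of the levels did not overlap. Without thinning, a Cd40 UMI was seen in 17.4% of knockout and 35.1% of control cells. After thinning to 1500 UMIs per cell it was seen in 10.1% of the 277 remaining knockout cells (6.82 to 14.3%) and 17.4% of the 235 remaining control cells (12.8 to 22.9%). Another random draw gave 12.3% in knockout and 17.4% in control cells, and in both draws the intervals overlapped. Of NK-like cells, with median depths of 7219 UMIs in the knockout and 8835.5 UMIs in the control library before thinning, 0 of 242 knockout and 0 of 154 control cells had one, which allows shares of up to 1.24% and 1.95%.

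The B clusters were then read apart. In the Fcrl5 cluster Cd40 had 44.4 CPM (29.2 to 64.6 CPM) in 158 knockout cells and 111 CPM (77.1 to 156 CPM) in 44 control cells, a ratio of 0.399 (0.231 to 0.681). In the Fcer2a cluster it had 101 CPM in knockout and 141 CPM in control cells, a ratio of 0.718 (0.452 to 1.11) whose interval includes 1. The thinned shares there were 16.8% in knockout and 16.9% in control cells. The median depth in the Fcrl5 cluster was 2995 UMIs in knockout and 5722.5 UMIs in control cells. At 1500 UMIs, 4.58% of knockout and 18.2% of control cells of the Fcrl5 cluster had a Cd40 UMI in the first draw, and 8.50% and 13.6% in the other draw. In both draws these intervals overlapped. Whether the ratios of the clusters differ was not tested.

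Cd86 had 87 UMIs, or 86.5 CPM, in knockout B-like cells and 55 UMIs, or 59.5 CPM, in control B-like cells, a ratio of 1.45 (1.03 to 2.08). Its thinned share was 13.7% in knockout and 4.68% in control cells in the first draw, and 9.03% and 5.53% in the other, and the intervals were apart in the first draw but not in the other. By cluster the ratio was 1.53 (0.652 to 3.49) for Fcer2a-led and 1.45 (0.849 to 2.59) for Fcrl5-led cells. In the Dnajc7 cluster Cd86 had 180 CPM in knockout and 288 CPM in control cells, a ratio of 0.624 (0.321 to 1.21). Cd80 had 20 UMIs in knockout and 9 in control B-like cells, a ratio of 2.04 (0.889 to 5.09), and 1.004 (0.379 to 2.94) within the Fcrl5 cluster.

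**Figure D2:**
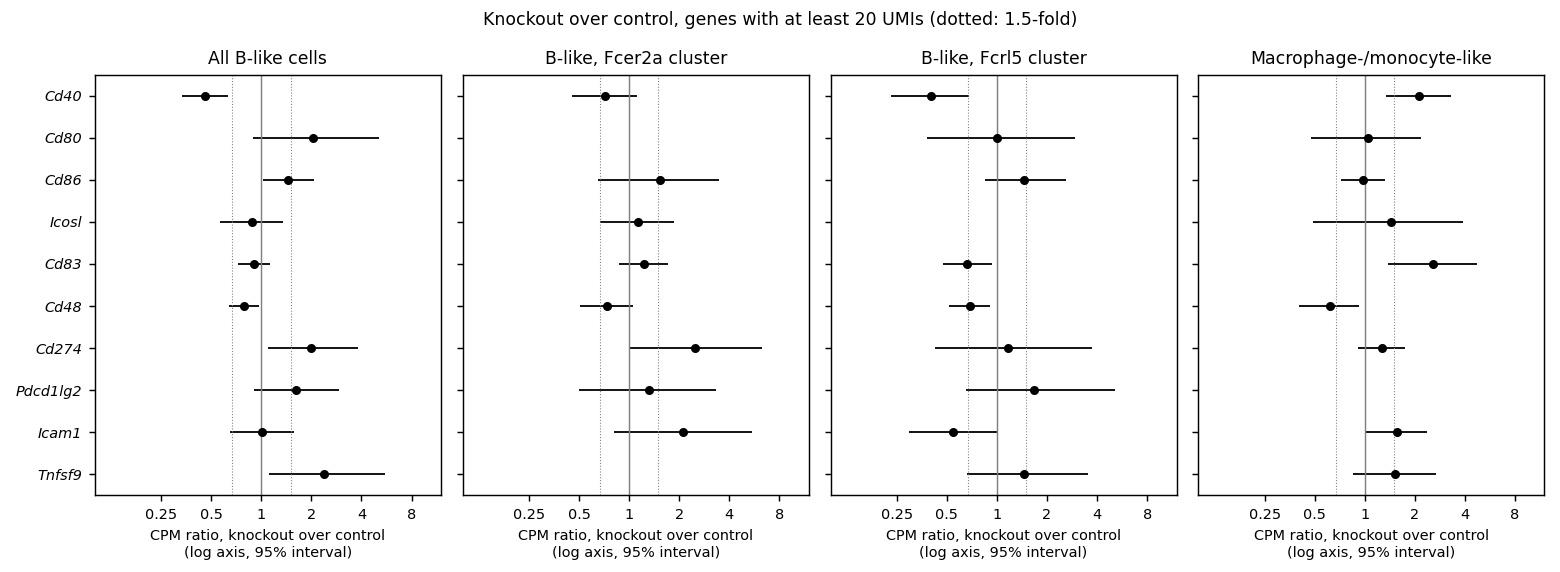
Ratio of CPM, knockout over control (log axis, 95% interval), for genes with at least 20 UMIs in 4 sets of cells; the solid line marks 1 and dotted lines 1.5-fold. Cd40 lies at 0.460 in all B-like cells, 0.718 among Fcer2a-led B cells, 0.399 among Fcrl5-led B cells and 2.12 in macrophage- or monocyte-like cells.

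For Cd83 and Icosl the interval over the whole class included 1. Cd83 had 159 CPM in knockout and 176 CPM in control B-like cells, a ratio of 0.902 (0.721 to 1.13). It stood at 1.23 (0.874 to 1.72) among Fcer2a-led cells and 0.661 (0.471 to 0.933) among Fcrl5-led cells. Icosl had 43.7 CPM in knockout and 49.7 CPM in control B-like cells, a ratio of 0.879 (0.568 to 1.36). Within each B cluster its knockout level was the higher, with overlapping intervals. Fcer2a-led cells had 90.7 CPM in knockout and 80.5 CPM in control cells, and Fcrl5-led cells 19.7 and 3.27 CPM (12 and 1 UMIs). The Dnajc7 cluster had 54.0 and 13.7 CPM (6 and 1 UMIs). Cd48 had 181 CPM in knockout and 229 CPM in control B-like cells, a ratio of 0.789 (0.644 to 0.967), with 0.684 (0.518 to 0.907) in the Fcrl5 cluster.

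Of the PD-1 ligands, Cd274 had 37 UMIs, or 36.8 CPM, in knockout B-like cells and 17 UMIs, or 18.4 CPM, in control B-like cells. The ratio was 2.00 (1.10 to 3.79). Among Fcer2a-led cells alone it was 2.48 (1.004 to 6.32), and among Fcrl5-led cells 1.17 (0.423 to 3.72). At 1500 UMIs a Cd274 UMI was seen in 5.05% of B-like cells in the knockout and 1.28% in the control library, beside 6.61% of knockout and 5.19% of control NK-like cells. Pdcd1lg2 had 35 UMIs in knockout and 20 in control B-like cells, a ratio of 1.61 (0.903 to 2.94).

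Icam1 had 44.7 CPM in knockout and 44.3 CPM in control cells, a ratio of 1.01 (0.646 to 1.58). Its clusters stood on opposite sides of 1, at 2.10 (0.809 to 5.51) for Fcer2a-led and 0.546 (0.297 to 1.01) for Fcrl5-led cells, with both intervals including 1. Tnfsf9 had 26 UMIs in knockout and 10 in control B-like cells. Of these, 20 lay in 1 knockout cell with an IGHA contig, and leaving out the highest cell of either library gave a ratio of 1.39 (0.329 to 6.68).

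In the Fcer2a cluster 3 of 8 members with enough UMIs were past 1.5-fold, all higher, against 8.73% of all genes higher, 13.7% lower and 22.4% in either direction. In the Fcrl5 cluster 1 of 9 was higher and 3 were lower, against 12.8% and 15.6% of all genes, or 28.5% in either direction. Macrophage markers summed to 1682 CPM in knockout and 946 CPM in control B-like cells, with 7 of the 12 at 0 in knockout and 8 in control cells. Erythroid markers summed to 239 CPM in knockout and 0 in control B-like cells, and Hbb-bs gave 202 UMIs, all in 1 cell of the Fcer2a cluster. The part of these in the ratios was not tested.

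**Figure D3:**
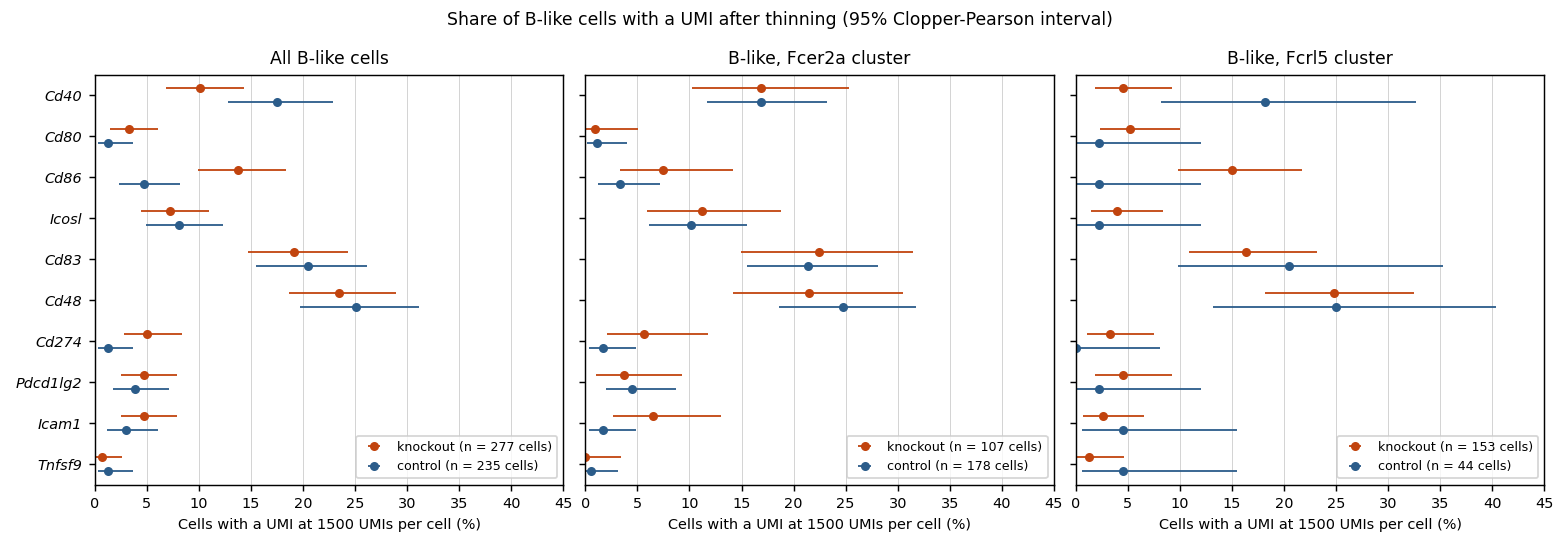
Share of B-like cells with at least 1 UMI of each gene (x axis, percent, 95% Clopper-Pearson interval) after every cell was thinned to 1500 UMIs in 1 random draw, knockout above control. Cd40 is at 10.1% in 277 knockout and 17.4% in 235 control B-like cells, and Cd48 at 23.5% and 25.1%.

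The paired V(D)J libraries covered the genotypes unequally. A productive heavy-chain contig was missing in 14 of the 287 B-like cells of the knockout and 151 of the 239 of the control library. Among B-like cells with a contig the Cd40 ratio was 0.495 (0.334 to 0.733), that of Cd86 0.995 (0.666 to 1.51) and that of Cd274 5.21 (1.64 to 26.5). The interval of Cd40 again lay below 1 in this subset, that of Cd86 included 1, and 2 members were past 1.5-fold, beside 22.7% of all genes in these cells. Among all cells with a contig, plasma-like ones included, 9 members were, beside 55.9% of all genes. The first of these subsets was chosen after the values were seen.

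Isotype gave a readout that the gene list did not use. Class-switched B-like cells numbered 29 in the knockout and 6 in the control library, and IGHM or IGHD cells 244 and 70. Icosl had 1 UMI in switched cells (2.99 CPM) and 55 in IGHM or IGHD cells (53.5 CPM) of both libraries, a ratio of 0.0558 (0.00139 to 0.324). Control cells alone had 0 Icosl UMIs in switched and 14 in IGHM or IGHD cells, with an interval (0 to 1.22) that includes 1. Cd86 stood at 128 CPM in switched and 72.0 CPM in unswitched cells, a ratio of 1.78 (1.19 to 2.63). Icam1 stood at 80.6 CPM in switched and 32.1 CPM in unswitched cells, a ratio of 2.51 (1.45 to 4.30).

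The same 3 members were set between the B clusters. Fcrl5 over Fcer2a cluster, Icosl stood at 0.218 (0.100 to 0.447) in knockout and 0.0407 (0.00101 to 0.239) in control cells. Cd86 stood at 2.16 (1.14 to 4.43) in knockout and 2.27 (1.09 to 4.80) in control cells. Icam1 stood at 1.07 (0.508 to 2.41) in knockout and 4.12 (1.89 to 9.69) in control cells, so its interval included 1 in the knockout library. Switched cells were 23 of 158 knockout and 3 of 44 control cells of the Fcrl5 cluster, and 1 of 112 knockout and 0 of 182 control cells of the Fcer2a cluster, so isotype and cluster overlap.

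Cd40, Cd83 and Cd274 had switched over unswitched ratios of 0.620 (0.352 to 1.04), 0.797 (0.565 to 1.10) and 0.479 (0.146 to 1.24), all with intervals that include 1. Tnfsf9 stood at 5.62 (2.67 to 12.5), but its 22 UMIs in switched cells included the 20 of 1 cell. Control cells had 0 Tnfsf9 UMIs in switched and 8 in unswitched cells. In the control library alone the 6 switched cells gave 8 Cd86 UMIs and a ratio of 1.11 (0.440 to 2.50), so the Cd86 value rests mainly on knockout cells, at 2.15 (1.34 to 3.42).

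**Figure D4:**
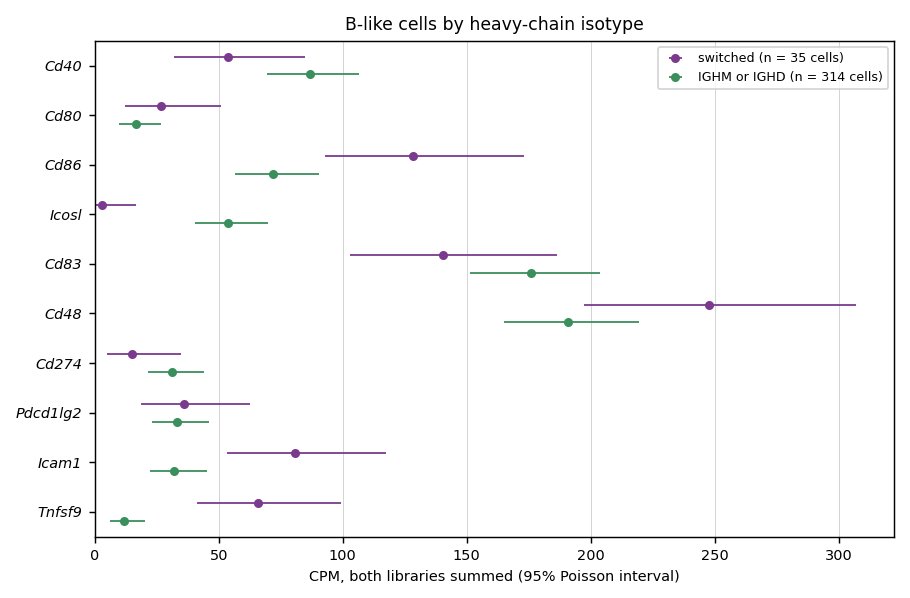
Level of each gene (CPM, x axis, 95% Poisson interval) in B-like cells with a switched heavy chain, drawn above those with IGHM or IGHD, both libraries summed. Icosl is at 2.99 CPM in 35 switched and 53.5 CPM in 314 unswitched cells, while Cd86, Icam1 and Tnfsf9 are higher in switched cells. For Tnfsf9, 20 of the 22 UMIs in switched cells lie in 1 cell.

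Other lists of the pathway were read in B-like cells by the same 1.5-fold rule. Of 18 genes of CD40 and NF-kB signalling, all counted, 0 were higher and 4 lower: Nfkb1, an NF-kB subunit, at 0.620 (0.464 to 0.826), Relb, the non-canonical subunit, at 0.613 (0.420 to 0.888), Ikbkb, the kinase IKK-beta, at 0.570 (0.382 to 0.841), and Birc3, the ubiquitin ligase cIAP2, at 0.643 (0.476 to 0.864). Of all genes 11.2% were lower, and the list's median log2 ratio of -0.07 stood beside -0.06 over all genes. In the Fcer2a cluster 1 of 14 counted genes of the list was higher, Nfkb2 at 1.69 (1.11 to 2.56), and 1 lower, Traf1 at 0.545 (0.180 to 1.40). Nfkb1, Relb, Ikbkb and Birc3 stood there at 0.756, 0.997, 0.874 and 0.763, all with intervals that include 1. In the Fcrl5 cluster 1 of 14 was higher and 4 lower. Of 22 other costimulatory and coinhibitory ligands, 10 were counted, with Slamf7 higher at 1.61 (1.02 to 2.57) and Cd72 and Slamf1 lower at 0.572 (0.462 to 0.707) and 0.595 (0.252 to 1.35). Cd72, an inhibitory coreceptor of B cells, stood at 144 CPM in knockout and 252 CPM in control cells. By cluster its ratio was 0.260 (0.174 to 0.385) for Fcrl5-led, 1.05 (0.775 to 1.41) for Fcer2a-led and 0.912 (0.517 to 1.63) for Dnajc7-led cells. Slamf7 stood at 2.11 (1.04 to 4.71) in the Fcrl5 cluster and 0.785 (0.275 to 1.99) in the Fcer2a cluster.

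Of the partners on T and NK cells, Cd2, the receptor of CD48, was also present in B-like cells, at 250.4 CPM in knockout and 311 CPM in control cells. Itgb2 and Itgal, the chains of LFA-1, stood there at 54.7 and 35.8 CPM in knockout and 81.1 and 32.4 CPM in control cells. Cd40lg had 0 UMIs in B-like cells of either library, 1 in knockout and 2 in control NK-like cells, and 3 in knockout and 18 in control cells of an unnamed cluster led by Tcrg-V6. Tnfrsf9, the 4-1BB receptor, had 839 CPM in knockout and 750 CPM in control NK-like cells, and 3.98 and 1.08 CPM in B-like cells. Pdcd1, the PD-1 receptor, had 315 CPM in knockout and 555 CPM in control T-like cells. Of the 10 partner genes 3 were counted in B-like cells and none was past 1.5-fold.

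In macrophage- or monocyte-like cells Cd40 was higher in the knockout library. It had 38 UMIs, or 116 CPM (82.1 to 159 CPM), in 47 knockout cells and 48 UMIs, or 54.8 CPM (40.4 to 72.6 CPM), in 99 control cells, a ratio of 2.12 (1.35 to 3.31). Cd83 had 70.2 CPM in knockout and 27.4 CPM in control cells, a ratio of 2.57 (1.38 to 4.75), and Icam1 116 and 74.2 CPM, a ratio of 1.57 (1.02 to 2.37). Cd48 was lower, at 91.6 CPM in knockout and 148 CPM in control cells, a ratio of 0.618 (0.401 to 0.925). Cd86 stood at 186 and 191 CPM, a ratio of 0.978 (0.717 to 1.32).

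In all 5 of 9 counted members were past 1.5-fold in these cells, 4 higher and 1 lower, against 10.8% higher and 12.9% lower of all genes, and 23.7% in either direction. At 1500 UMIs, 11.4% of 44 knockout and 9.47% of 95 control cells had a Cd40 UMI, and 15.9% and 5.26% did in the other draw, with intervals that overlapped each time. A Cd83 UMI was seen in 6.82% of knockout and 4.21% of control cells, and in 4.55% and 4.21% in the other draw. These intervals overlapped too. The 23 Cd83 UMIs of knockout cells lay in 9 cells, with up to 6 in 1 cell. The makeup of the class differed: C1qa, a gene of tissue macrophages, stood at 1280 CPM in knockout and 416 CPM in control cells, and Ly6c2, a monocyte gene, at 2688 and 3284 CPM. The 11 B cell markers summed to 281 CPM in knockout and 53.6 CPM in control cells, with 2 of them at 0 in each, and Cd79a alone stood at 104 and 9.13 CPM. The part of either in the ratios was not tested. Pdcd1lg2 had 10 UMIs in knockout cells, 8 of them in 1 cell, and 1 in control cells.

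In neutrophil-like cells Cd274 had 43 UMIs, or 559 CPM (404 to 753 CPM), in 16 knockout cells and 329 UMIs, or 851 CPM (761 to 948 CPM), in 72 control cells, a ratio of 0.657 (0.466 to 0.905). Of 5 counted members 2 were past 1.5-fold, Cd274 lower and Cd48 higher at 1.68 (0.544 to 4.41), beside 19.2% of all genes higher, 18.5% lower and 37.7% in either direction. At 1500 UMIs 28.6% of 14 knockout and 60.3% of 68 control cells had a Cd274 UMI, but at 1000 UMIs 60.0% of knockout and 40.8% of control cells did, with intervals that overlapped at each depth. B cell markers summed to 429 CPM in knockout and 10.3 CPM in control cells of this class, and NK cell markers to 572 CPM with 1 of 9 at 0 in knockout cells, while all 9 were at 0 in control cells. Their part in the ratio was not tested.

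In pDC-like cells only Cd48 and Icam1 had enough UMIs, at 1.10 (0.744 to 1.60) and 1.06 (0.576 to 1.93), and 0 of 2 were past 1.5-fold, against 10.7% of all genes higher, 11.0% lower and 21.7% in either direction. In NK-like cells 1 of 7 was higher, Tnfsf9 at 1.79 (0.936 to 3.56), and 0 were lower, against 5.76% of all genes higher, 5.94% lower and 11.7% in either direction. Icam1 stood at 1.26 (1.02 to 1.55) there. Pdcd1lg2 stood there at 81.1 CPM in knockout and 76.7 CPM in control cells, a ratio of 1.06 (0.846 to 1.32).

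At 1500 UMIs, B-like cells showed 0.921 of the 10 genes on average in the knockout and 0.864 in the control library. At least 2 were seen in 21.7% of these knockout and 22.6% of these control cells. At least 3 were seen in 6.50% of these knockout and 2.98% of these control cells. In macrophage- or monocyte-like cells at least 3 were seen in 2 of 44 knockout (4.55%) and 8 of 95 control cells (8.42%). At least 2 were seen there in 34.1% of knockout and 23.2% of control cells. B-like cells with none of them made up 37.2% in the knockout and 39.6% in the control library.

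Likeness of profile was described by Pearson's r of log2(CPM + 10) over 20 class and library units, among 8339 genes, leaving out the members themselves when naming the most alike. These units share libraries and differ in depth and size, so r describes the profiles only. Icosl was most like H2-DMa (r = 0.853), H2-DMb2 (0.846) and March1 (0.835), and Cd40 most like March1 (0.832), Gdi2 (0.831) and Slc7a7 (0.826). Cd86 was most like Apobec1 (0.888), Apoe (0.875) and Fcgr2b (0.855), and Cd80 most like Oas2 (0.819), Eps8 (0.814) and Tlr2 (0.813). Cd274 was most like Mxi1 (0.863), Ero1l (0.836) and Plekhm2 (0.830), whereas Pdcd1lg2 was most like Pglyrp1 (0.810), Dapk2 (0.790) and I730030J21Rik (0.774). For Icam1 the list was Sp110 (0.879), Fubp1 (0.876) and Zup1 (0.861), for Cd48 Sec22a (0.904), Gnptg (0.901) and Afg3l1 (0.889), for Cd83 Slc28a2 (0.816), Avl9 (0.804) and Tank (0.785), and for Tnfsf9 Plk2 (0.858), Dgkz (0.836) and Ralb (0.823). Among the members themselves Cd40 and Icosl had the highest r (0.845), followed by Cd80 and Cd86 (0.791), and Cd86 and Cd48 the lowest (-0.57).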

How the data were processed

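The authors deposited 1 expression matrix and 1 V(D)J contig table per genotype. The deposited matrices hold whole-number UMI counts per gene and barcode, not normalized, from Cell Ranger, whose version is 6.0.0 per the file headers. The submitters' processing notes name GRCm38 (mm10). The deposited contig tables hold V(D)J read counts and UMI counts per contig. Per the labels' protocols 1400 cells were aimed for, at 24000 expression reads and 6000 V(D)J reads each.

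Cells with at least 200 genes, at most 10% mitochondrial UMIs, no Scrublet doublet call and under 2 heavy chains were kept. The mitochondrial limit removed 23 knockout and 10 control barcodes. Scrublet marked 5 knockout and 1 control barcodes, so doublets may remain. Cells were clustered with Scanpy 1.11.5 (2000 genes, 30 components, 15 neighbours, Leiden resolution 1) on values scaled to 10000 UMIs per cell. A cluster took the name of the marker list with the highest mean log2 enrichment, if that was at least 1 with at least 3 markers detected in 10% of cells, at least 1 among the top 25 genes and no other list with more there. There were 15 lists. Counts were then summed per class. CPM have exact Poisson intervals, ratios exact conditional binomial ones (SciPy 1.17.1, Python 3.11.15), at 95%. A count of 0 was set to 3 counts for bounds, which are not the limits of the 95% intervals. Genes with at least 20 UMIs over both libraries were counted past a fold of 1.5. For shares, cells were thinned to 1500 UMIs, leaving out 10 knockout and 4 control B-like cells. Intervals of ratios were tested on simulated Poisson counts, the assumption on which they are built. That test does not cover UMIs clumped in single cells. The 10 members, the pathway lists and the markers were chosen with earlier results of these data known. All members are named, pathway genes past 1.5-fold, and the 3 genes of highest r per member among genes with at least 100 UMIs over units of at least 20 cells. Alternatives were another resolution, no filter, other totals, cell means, leaving out the top cell, other depths and a heavy-chain contig. CPM are not corrected for capture, so genes are not ranked against each other.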

Additional observations from a re-analysis of the deposited data

Results flagged for a closer look

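In 3 genes the knockout over control ratio lay on one side of 1 in some cells and on the other side elsewhere, with intervals that cover counting error and do not include 1. The share of all genes that do so is not given here, so this count describes the members only. These differences between classes were not tested, as there was 1 library per genotype. Cd40 stood at 2.12 in macrophage- or monocyte-like cells, against 0.460 in B-like cells and 0.399 in their Fcrl5 cluster. Cd83 stood at 2.57 in macrophage- or monocyte-like cells, against 0.661 in the Fcrl5 cluster. Cd274 stood at 2.00 in B-like cells and 2.48 in their Fcer2a cluster, against 0.657 in neutrophil-like cells.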

How the results depend on the processing

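No paired analysis was possible because there was 1 library per genotype and no replicate numbers join them. Cd40 in B-like cells was below 1 in every alternative run on B-like cells alone, at 0.718 within the Fcer2a cluster, where its interval includes 1. Among all cells with a heavy-chain contig, which by construction add the control plasma-like cells, Cd40 turned to 1.54 and Cd274 to 0.597, and 9 members were past 1.5-fold, beside 55.9% of all genes. The count of 5 members in B-like cells was 3 within the Fcer2a cluster, namely Cd86, Cd274 and Icam1. Of these only Cd274 was among the 5. In the Fcrl5 cluster 1 member was higher and 3 lower, beside 28.5% of all genes in either direction. In B-like cells with a contig, an alternative added after seeing the data, the count was 2, Cd40 and Cd274. Without the top cell of each library, 3 members instead of 5 were past 1.5-fold in macrophage- or monocyte-like cells. With each cell weighted equally, 4 instead of 1 were in NK-like cells. For the top-cell and equal-weight runs the share of all genes past 1.5-fold is not given here, so these counts describe the members only. At Leiden resolution 0.5 the neutrophil-like cells joined the macrophage- or monocyte-like class, where Cd274 then stood at 0.698 instead of 1.26, and no neutrophil-like value could be had. Of the alternative ratios 191 lay within the interval of the reported ratio, 16 lay outside it and 2 reversed. Shares at 1500 UMIs rest on 1 random draw and were less stable: 10 lay outside their interval in another draw and 90 within it, 32 lay outside at 1000 UMIs and 57 without thinning. Cd86 moved by over 1.5 times between draws in knockout B-like cells. Few UMIs per member limit precision: in B-like cells the intervals of Cd40, Cd86, Cd48, Cd274 and Tnfsf9 excluded 1, but that of Cd86 included it in cells with a contig (0.995) and that of Tnfsf9 without the top cells (1.39).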
